A study of Homo sapiens with 12 samples.

Results

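DUSP1, DUSP5, DUSP9, KLF6, IER2 and HEXIM1 were followed in RNA-seq libraries of SW480 cells, an established human colorectal adenocarcinoma line. They were picked by symbol and are 6 of the 3699 genes in the deposited table. All 6 passed the filter on low counts, as did 3429 genes in all. DUSP1, DUSP5 and DUSP9 are MAP kinase phosphatases, and DUSP1, DUSP5, KLF6 and IER2 are immediate early genes. HEXIM1 belongs to neither class.

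There were 4 groups of 3 libraries. One group received GLY, one GLY together with PUE (GLY_PUE), one PUE alone, and one was left untreated. The abbreviations are kept as the labels give them, and no dose is stated. All cells were grown in serum-containing medium, and the treatment lasted 12 h in every treated library, except that GLY replicates 2 and 3 are labelled 13 h and 14 h. The protocol gives a single time, so whether the 13 h and 14 h labels are true exposures is not known. Each hour label in the GLY group belongs to a single replicate, so hour and replicate cannot be told apart there. Free-text descriptions count the name of the line upward from library to library, and the extraction text mentions retina, but the cell line label reads SW480 for every library. The labels do not call the replicates separate cultures. The p-values below thus reflect the scatter among 3 libraries per group, and that scatter may be technical. In bulk RNA, fewer cells of a kind and less RNA per cell cannot be told apart.

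MAP kinases switch genes on after growth factors and stress, and the phosphatases encoded by DUSP genes switch the kinases off again. DUSP1 is a nuclear enzyme acting on p38, JNK and ERK, DUSP5 is a nuclear enzyme specific for ERK, and DUSP9 and its relative DUSP6 are cytoplasmic enzymes that prefer ERK. Many of these enzymes are themselves induced by the kinases they silence. Immediate early genes are transcribed within minutes of a signal without new protein synthesis: KLF6 encodes a zinc-finger transcription factor and IER2 a small nuclear protein. HEXIM1, together with the 7SK RNA, holds the elongation kinase P-TEFb inactive.

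Library totals, recovered from the ratio of count to expression value, ranged from 19.7 to 21.4 M reads, of which the table holds 13.8 to 15.4%. Every gene in the table had passed the authors' own cut in at least 1 comparison, so the table is a list selected for change. In untreated and PUE cells the libraries numbered 3 stood apart: the mean chi-square per gene between replicates 1 and 3 was 73.2 in PUE and 76.4 in untreated cells, but between replicates 1 and 2 it was 2.13 in PUE and 2.67 in untreated cells. In GLY_PUE cells replicate 3 stood apart too, at 52.1 from replicate 1 and 61.9 from replicate 2, with 5.09 between replicates 1 and 2. GLY replicate 1 also stood apart, at 181 from replicate 2 and 256 from replicate 3, with 74.8 between replicates 2 and 3. Of 11 markers of intestinal epithelium the table held VIL1 and CDX2, and their summed level was 4.16 to 7.29 FPKM (fragments per kilobase of transcript, scaled to library size) in GLY, 4.98 to 5.69 in GLY_PUE, 25.53 to 33.17 in PUE and 24.95 to 31.86 in untreated libraries. Of 5 leukocyte markers it held CD14 and CD68, summed to 9.49 to 13.48 FPKM in GLY, 9.83 to 12.99 in GLY_PUE, 3.01 to 3.38 in PUE and 2.6 to 3.89 in untreated libraries. The 2 went opposite ways: CD68, which makes up nearly all of the sum, was at 9.43 to 13.45 FPKM in GLY and 2.08 to 3.27 in untreated libraries, and CD14 was at 0.03 to 0.13 in GLY and 0.52 to 0.62 in untreated libraries. The lists of 6 fibroblast and 4 endothelial markers had no gene in the table. The part of these markers in the results was not tested.

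The sequence just upstream is shown for 4 of the genes: DUSP1, KLF6 and IER2, which were higher with GLY, and HEXIM1, which was lower. DUSP9, which was lower too, is not shown, and its windows are described below. No link between these letters and the direction of change was tested. Each run is the 250 bases before the annotated start, written 5′ to 3′ on the strand of the gene, from RefSeq on GRCh38.p14. RefSeq windows matched 5 of the 6 genes, all but DUSP5. Capitals mark matches, on either strand, to the cAMP response element TGACGTCA, its core TGACG, the E-box CACGTG and TATAAA.
DUSP1, chr5:172771196-172771445, minus strand: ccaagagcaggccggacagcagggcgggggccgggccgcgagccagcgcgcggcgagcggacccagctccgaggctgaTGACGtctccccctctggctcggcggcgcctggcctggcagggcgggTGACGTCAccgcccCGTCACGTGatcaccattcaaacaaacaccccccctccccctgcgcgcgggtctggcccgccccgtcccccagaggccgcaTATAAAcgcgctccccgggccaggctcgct
KLF6, chr10:3785210-3785459, minus strand: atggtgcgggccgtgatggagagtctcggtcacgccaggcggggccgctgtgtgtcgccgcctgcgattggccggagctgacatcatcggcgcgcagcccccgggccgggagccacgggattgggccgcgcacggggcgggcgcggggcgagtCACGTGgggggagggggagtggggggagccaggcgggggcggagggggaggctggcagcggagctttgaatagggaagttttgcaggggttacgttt
IER2, chr19:13150161-13150410, plus strand: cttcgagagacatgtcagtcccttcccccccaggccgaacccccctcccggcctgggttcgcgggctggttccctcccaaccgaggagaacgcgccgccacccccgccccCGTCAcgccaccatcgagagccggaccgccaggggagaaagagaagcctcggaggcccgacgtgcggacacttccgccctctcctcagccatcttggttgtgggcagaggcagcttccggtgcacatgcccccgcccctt
HEXIM1, chr17:45148225-45148474, plus strand: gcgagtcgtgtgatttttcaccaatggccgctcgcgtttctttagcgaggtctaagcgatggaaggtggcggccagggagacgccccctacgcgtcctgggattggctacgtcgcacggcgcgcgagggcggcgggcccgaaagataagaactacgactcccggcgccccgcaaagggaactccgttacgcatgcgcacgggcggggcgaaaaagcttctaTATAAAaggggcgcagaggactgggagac

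The DUSP1 window held the full cAMP response element, found in 1.77% of 27305 RefSeq promoter windows. TGACG matched there 4 times, with 2 of the matches inside the full element and 1 overlapping CACGTG, and 21.7% of all windows hold at least 1 such match. DUSP1 and KLF6 each held CACGTG (6.49% of all windows), DUSP1 and HEXIM1 each held TATAAA (11.1%), and IER2 held TGACG once, on the other strand. The letters of the AP-1 site TGANTCA, the heat shock element GAANNTTC and the CArG box of serum response factor were in none of these windows, against 6.6%, 5.85% and 1.14% of all windows. Neither of the 2 DUSP9 windows matched any motif searched. A match describes letters and not binding.

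The 4 immediate early genes were higher in GLY cells than in untreated cells, and the other pair lower. Relative to library totals, DUSP1, DUSP5, KLF6 and IER2 rose in GLY cells and DUSP9 and HEXIM1 fell, by edgeR's quasi-likelihood test with an adjusted p under 0.05. Thus 4 of 6 were called higher, where 19.7% of all genes tested were, and 2 of 6 lower, where 64.6% were. The members were chosen with earlier results known, so these counts are a description. GLY and untreated libraries did not overlap for any of the 6, which held for 83.3% of the genes tested.

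**Figure D1:**
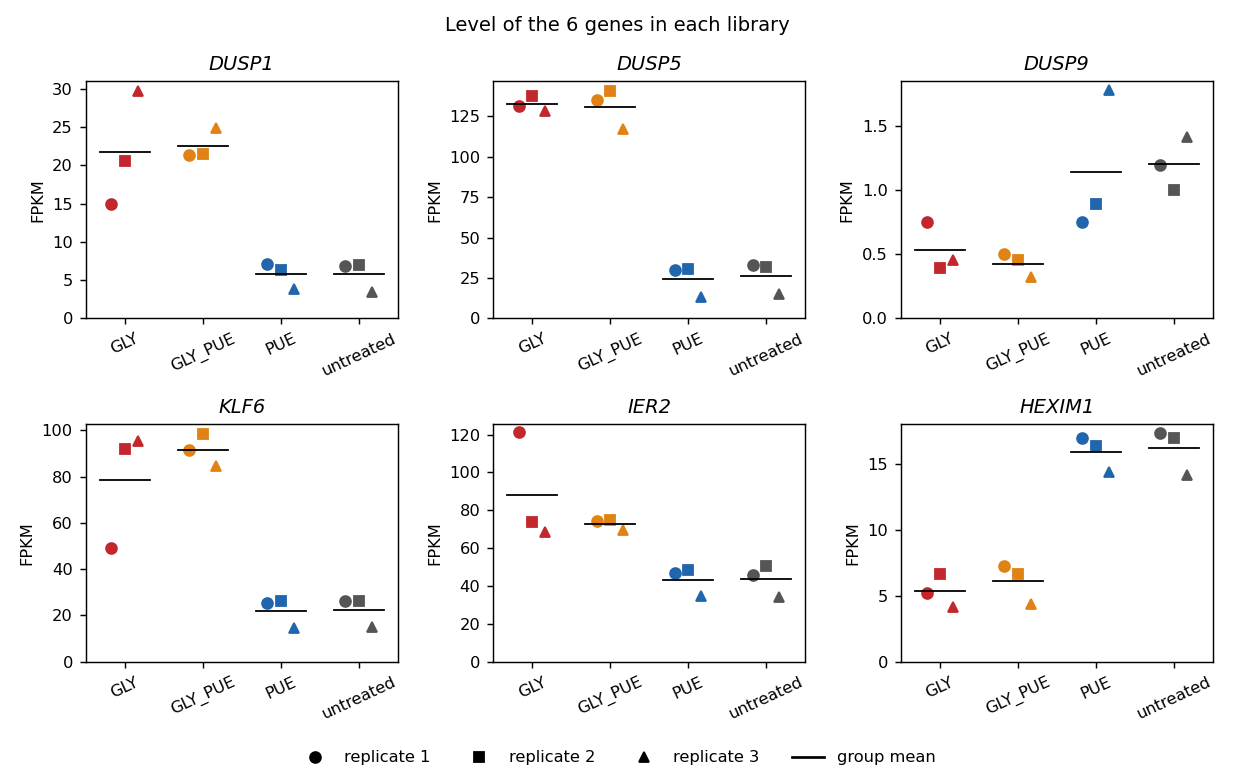
Level of each gene (FPKM, linear axis from 0) in the 12 libraries, by group, with marker shape giving the replicate and the line the group mean. Libraries with GLY or GLY_PUE lie above all others for DUSP1, DUSP5, KLF6 and IER2, and on or below them for DUSP9 and HEXIM1; for example DUSP5 averaged 133 FPKM in GLY and 26.5 in untreated cells.

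DUSP5 had the largest increase of the 6 and was also the most abundant of them per length in GLY cells. It was at 131.51, 137.99 and 128.34 FPKM in GLY libraries, against 32.83, 31.83 and 14.96 FPKM in untreated libraries. The GLY libraries lay close together, and the spread came from untreated replicate 3. The log2 fold change was 2.32 ± 0.35 (SE; adjusted p = 0.000226), with a 95% interval of 1.56 to 3.08.

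DUSP1, the broad nuclear phosphatase, was at 14.95, 20.52 and 29.7 FPKM in GLY libraries, against 6.86, 6.99 and 3.45 FPKM in untreated libraries. GLY libraries differed among themselves almost as much in ratio as untreated ones, and the groups stayed apart. The log2 fold change was 1.91 ± 0.35 (adjusted p = 0.000647), and it was 1.36 when the libraries numbered 3 were left out of every group.

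DUSP9 was the scarcest of the 6 and fell. It was at 0.75, 0.39 and 0.46 FPKM in GLY libraries, from 36, 20 and 22 reads, against 1.2, 1.0 and 1.42 FPKM in untreated libraries, from 56, 48 and 67 reads. The groups did not overlap, but each value rests on few reads. The log2 fold change of -1.20 ± 0.38 (adjusted p = 0.0123) lay close to the median of all genes tested, which was -1.15. It was 0.00 (adjusted p = 0.998) when libraries were scaled by TMM, which takes most genes in the table as unchanged and raises all log2 values by a median of 1.13.

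KLF6 was at 49.28, 91.76 and 95.2 FPKM in GLY libraries, against 26.18, 26.35 and 14.83 FPKM in untreated libraries. GLY replicate 1 was the lowest of its group, and it still lay above every untreated library. The log2 fold change was 1.81 ± 0.33 (adjusted p = 0.000616).

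IER2 was at 121.08, 73.64 and 68.66 FPKM in GLY libraries, against 45.9, 50.6 and 33.94 FPKM in untreated libraries. Here GLY replicate 1 was the highest library, the reverse of its place for KLF6 and DUSP1. The log2 fold change of 1.01 ± 0.26 (adjusted p = 0.00454) was the smallest increase among the 4.

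HEXIM1, the P-TEFb inhibitor, was at 5.19, 6.68 and 4.13 FPKM in GLY libraries, against 17.37, 16.99 and 14.21 FPKM in untreated libraries. The lowest untreated library was above the highest GLY library by a wide margin. The log2 fold change was -1.60 ± 0.26 (adjusted p = 0.000351), and -0.46 (adjusted p = 0.331) with TMM. Relative to library totals the median of all genes tested was -1.15, and 24.9% of them had a lower value than HEXIM1. No other of the 17 P-TEFb and 7SK genes listed was in the table, so HEXIM1 could not be set beside its partners.

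The 4 increases were called under either scaling, and the decreases only relative to library totals. With TMM within the table, DUSP1 was at 2.98, DUSP5 at 3.43, KLF6 at 2.87 and IER2 at 2.20 on the log2 scale in GLY against untreated cells, and all remained called. Over all genes tested, 76.7% of the calls were lower with library totals and 29.9% with TMM. A ratio between genes of the same library is free of this choice. KLF6 to HEXIM1, as a ratio of FPKM, was 9.5, 13.7 and 23.1 in GLY libraries, against 1.51, 1.55 and 1.04 in untreated libraries. DUSP1 to DUSP9 was 19.9, 52.6 and 64.6 in GLY libraries, against 5.72, 6.99 and 2.43 in untreated libraries. Both ratios were thus higher in every GLY library. Each sets a gene called higher over a gene called lower, so its direction follows from those calls. A ratio does not tell which of its genes changed, so the decreases still rest on library totals.

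**Figure D2:**
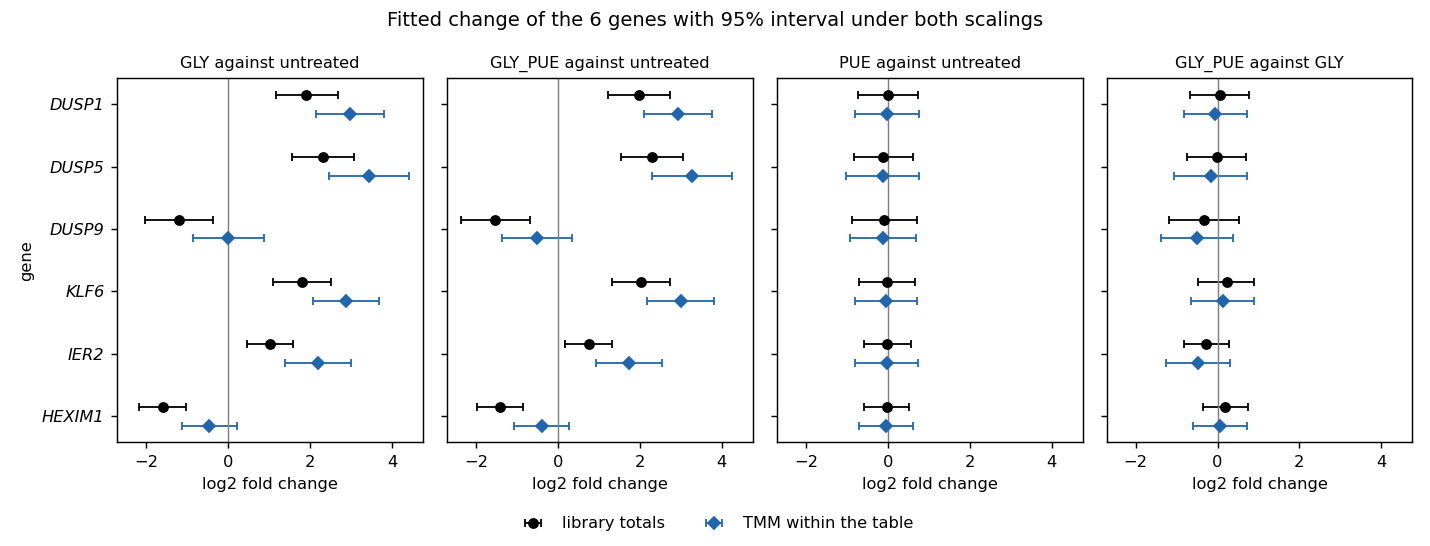
Log2 fold change of each gene with its 95% interval in 4 comparisons, with libraries scaled to their recovered totals (black circles) or by TMM within the table (blue diamonds). DUSP1, DUSP5, KLF6 and IER2 lie to the right of 0 under both scalings with GLY or GLY_PUE against untreated, DUSP9 and HEXIM1 cross 0 with TMM, and every interval spans 0 for PUE against untreated and for GLY_PUE against GLY.

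GLY_PUE cells showed the same 4 genes higher and the same pair lower. This comparison shares its untreated libraries with the one above, so it adds no independent control. With GLY_PUE, 4 of 6 were called higher, where 20.2% of all genes tested were, and 2 of 6 lower, where 57.1% were. No GLY_PUE library overlapped an untreated one for any of the 6, as for 87.4% of the genes tested.

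DUSP5 was at 135.14, 140.6 and 117.5 FPKM in GLY_PUE libraries, against the untreated values given above, a log2 fold change of 2.30 ± 0.35 (adjusted p = 0.000251). DUSP1 was at 21.36, 21.48 and 24.86 FPKM (1.97 ± 0.35, adjusted p = 0.000602). KLF6 was at 91.55, 98.45 and 84.71 FPKM (2.02 ± 0.33, adjusted p = 0.000374). All of these libraries lay above every untreated one. Of the pair that fell, DUSP9 was at 0.5, 0.46 and 0.32 FPKM (-1.53 ± 0.39, adjusted p = 0.00435). HEXIM1 was at 7.3, 6.62 and 4.38 FPKM (-1.41 ± 0.26, adjusted p = 0.000748). With TMM these 2 were at -0.51 and -0.40 and were not called.

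IER2 had the least secure increase. It was at 74.21, 75.04 and 69.63 FPKM in GLY_PUE libraries, all above the untreated range, with a log2 fold change of 0.75 ± 0.26 (adjusted p = 0.0211). The call was lost without untreated replicate 3 (0.60, adjusted p = 0.0824), without GLY_PUE replicate 1 (0.73, adjusted p = 0.0537), without GLY_PUE replicate 2 (0.73, adjusted p = 0.0543) and without the libraries numbered 3 (0.63, adjusted p = 0.0636). With TMM it was 1.73 and called.

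Against PUE alone, GLY_PUE gave the same directions. DUSP1 was at 1.96, DUSP5 at 2.41, KLF6 at 2.05 and IER2 at 0.75 on the log2 scale (adjusted p = 0.000629, 0.000205, 0.000345 and 0.02). DUSP9 was at -1.45 (adjusted p = 0.00562) and HEXIM1 at -1.38 (adjusted p = 0.000823). That is 4 of 6 higher, where 20.6% of genes tested were, and 2 of 6 lower, where 57.3% were. The groups did not overlap for any of the 6, as for 87.8% of the genes tested. IER2 lost its call here without PUE replicate 3 (0.62, adjusted p = 0.0763), without GLY_PUE replicate 1 (0.74, adjusted p = 0.0513), without GLY_PUE replicate 2 (0.73, adjusted p = 0.0526) and without the libraries numbered 3 (0.65, adjusted p = 0.0567), where DUSP9 lost it as well (-0.83, adjusted p = 0.0538).

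PUE alone moved none of the 6 past the threshold. DUSP1 was at 7.16, 6.39 and 3.86 FPKM in PUE libraries, DUSP5 at 30.01, 30.38 and 13.53, and KLF6 at 25.33, 26.42 and 14.56. IER2 was at 46.67, 48.32 and 34.92 FPKM, HEXIM1 at 16.95, 16.39 and 14.39, and DUSP9 at 0.75, 0.89 and 1.78. PUE and untreated libraries overlapped for all 6, and in both groups replicate 3 was the lowest library for every gene but DUSP9. The log2 fold changes ran from -0.11 (DUSP5; 95% interval -0.83 to 0.62) to 0.01 (DUSP1; -0.73 to 0.75), with adjusted p = 1 for each. The interval of HEXIM1, the narrowest, was -0.58 to 0.52. Of all genes tested, 0% were called by edgeR, DESeq2 or limma-voom, and 12, 4 and 14 had an unadjusted p under 0.05 by these tools in turn. Groups did not overlap for 3.18% of genes.

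PUE added to GLY did not move the 6 genes past the threshold either. GLY_PUE against GLY gave log2 fold changes of 0.05 for DUSP1 and -0.02 for DUSP5, and the groups overlapped for all 6, where 4.87% of genes tested did not overlap. KLF6 was at 0.22 (95% interval -0.47 to 0.90), IER2 at -0.27, HEXIM1 at 0.19 and DUSP9 at -0.33, with adjusted p = 0.959 for each of these 4. Of all genes tested, 0% were called by edgeR, DESeq2 or limma-voom, and 57, 49 and 59 had an unadjusted p under 0.05 by these tools in turn. The authors' deposited table lists KLF6 at a log2 ratio of 0.21 with q = 1.33e-59, IER2 at -0.27 with q = 4.19e-39, and HEXIM1 at 0.19 with q = 0.000246 for the same comparison. For DUSP1, DUSP5 and DUSP9 the authors' deposited table has q = 0.278, 0.286 and 0.27. How the authors' test used the replicates is not given in the sources used here. The interaction, which asks whether the change with GLY differs with and without PUE, ran from -0.26 (IER2) to 0.24 (KLF6) with adjusted p = 0.999 for each of the 6. It called 0% of genes, and 33 had an unadjusted p under 0.05 by edgeR, 22 by DESeq2 and 35 by limma-voom.

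Across the 4 groups the mean levels fell into a GLY-containing and a GLY-free level for each gene. By group mean, DUSP1 was at 21.7 FPKM in GLY, 22.6 in GLY_PUE, 5.80 in PUE and 5.77 in untreated cells, and within each level the neighbours did not differ beyond their spread. DUSP5 averaged 133 ± 4.92 FPKM in GLY, 131 ± 12.1 in GLY_PUE, 24.6 ± 9.62 in PUE and 26.5 ± 10.0 in untreated cells (SD, n = 3). KLF6 averaged 78.7 ± 25.6 FPKM in GLY, 91.6 ± 6.87 in GLY_PUE, 22.1 ± 6.56 in PUE and 22.5 ± 6.60 in untreated cells. The highest group mean exceeded the lowest 5.38-fold for DUSP5, 4.14-fold for KLF6, 3.91-fold for DUSP1 and 2.03-fold for IER2, and 3.04-fold for HEXIM1 and 2.83-fold for DUSP9 in the other direction.

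For DUSP1, DUSP5 and KLF6 the increases were largest between the libraries numbered 3, with GLY and with GLY_PUE. Between same-numbered libraries, DUSP1 was 2.18, 2.94 and 8.61 times as high in GLY as in untreated cells (replicates 1, 2 and 3), on the FPKM scale. DUSP5 was 4.01, 4.34 and 8.58 times as high, and KLF6 1.88, 3.48 and 6.42 times. IER2 was 2.64, 1.46 and 2.02 times as high, largest at number 1. With GLY_PUE over untreated these ratios were 3.11, 3.07 and 7.21 for DUSP1, 4.12, 4.42 and 7.85 for DUSP5, 3.50, 3.74 and 5.71 for KLF6, and 1.62, 1.48 and 2.05 for IER2, which here was also largest at number 3. DUSP9 was lowest relative to untreated at number 3 as well, with ratios of 0.625, 0.39 and 0.324 in GLY and 0.417, 0.46 and 0.225 in GLY_PUE over untreated cells. HEXIM1 was more even, at 0.299, 0.393 and 0.291 in GLY and 0.42, 0.39 and 0.308 in GLY_PUE over untreated cells. Every one of these ratios had the direction of the fitted change. Matching GLY to untreated libraries by number is only a convention, since they deviated together little at numbers 1 and 2. GLY replicate 3 is also the library labelled 14 h. For DUSP1 and KLF6 it was the highest GLY library (29.7 and 95.2 FPKM). Untreated replicate 3 was the lowest untreated library for both (3.45 and 14.83 FPKM). For DUSP5 GLY replicate 3 was the lowest GLY library (128.34 FPKM), and its large ratio came from untreated replicate 3 (14.96 FPKM). The part of the labelled hour in these ratios was not tested.

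In untreated and PUE cells the low level of immediate early genes in replicate 3 was not limited to the 4. Of 18 other immediate early genes tested, 17 were lowest in replicate 3 in PUE cells and 17 in untreated cells, while 30.1% of all genes tested were lowest there in PUE and 31.6% in untreated cells. In GLY_PUE cells 11 of the 18 were lowest in replicate 3, against 29% of all genes. GLY cells did not show it: 6 of the 18 were lowest and 6 highest in replicate 3, against 25.3% and 43.3% of all genes, and 12 were lowest in replicate 1, against 50.4%. The part of this difference between libraries in the fitted changes was not tested beyond leaving libraries out.

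**Figure D3:**
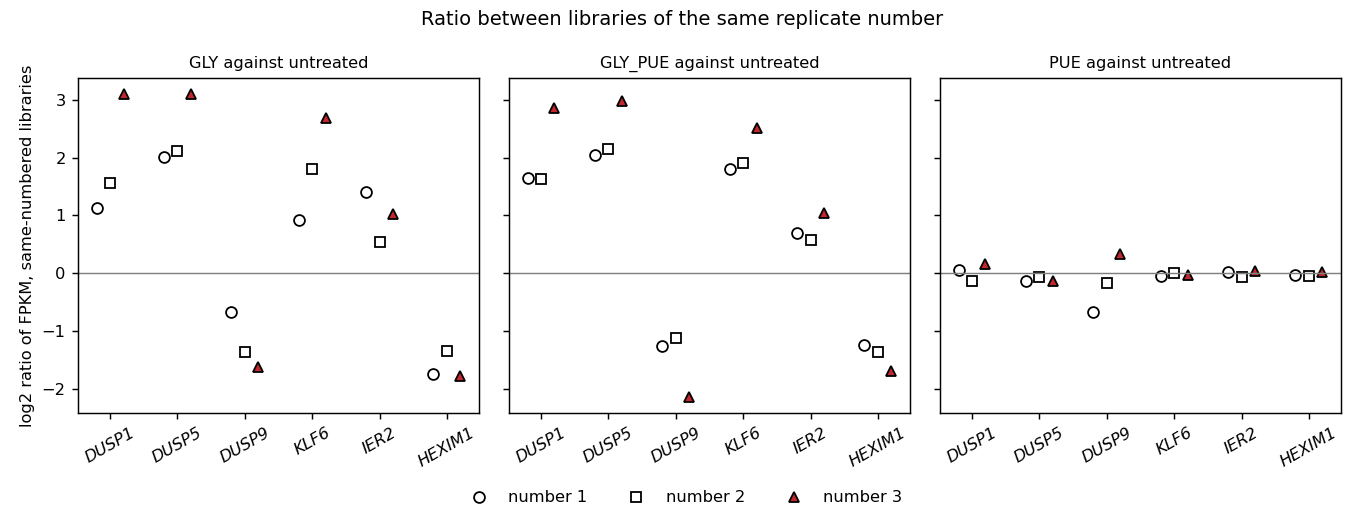
Log2 ratio of FPKM between libraries that carry the same replicate number, for GLY, GLY_PUE and PUE against untreated, with one point per number. The filled triangles, for number 3, are the highest points for DUSP1, DUSP5 and KLF6 with GLY and GLY_PUE, and the PUE points of all genes but DUSP9 lie near 0.

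The other MAP kinase phosphatases in the table split as DUSP5 and DUSP9 did. Of 7 others listed, 3 were in the table. With GLY 2 rose and 1 fell, where 19.7% of all genes tested rose and 64.6% fell. DUSP8 and DUSP10, which act mainly on JNK and p38, rose. DUSP8 was at 8.14, 6.02 and 5.33 FPKM in GLY libraries, against 1.9, 2.06 and 0.93 in untreated libraries (log2 fold change 1.99 ± 0.30, adjusted p = 0.000238). DUSP10 averaged 3.21 ± 1.08 FPKM in GLY and 1.12 ± 0.232 in untreated cells (1.33 ± 0.29, adjusted p = 0.00174). DUSP6, the cytoplasmic ERK phosphatase, was at 14.72, 33.06 and 31.65 FPKM in GLY libraries, against 61.7, 63.04 and 51.94 in untreated libraries (-1.16 ± 0.28, adjusted p = 0.00332). This fall lay close to the median of all genes tested, which was -1.15. With TMM DUSP6 was at -0.09 and was not called, while DUSP8 (3.15) and DUSP10 (2.42) still were.

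Within a library the leading phosphatase among the 6 in the table changed place. DUSP5 made up 76.4, 68.5 and 64.3% of the summed FPKM of the 6 listed phosphatases in GLY libraries, against 31.1, 30 and 20.3% in untreated libraries. DUSP6 made up 8.55, 16.4 and 15.9% in GLY libraries, against 58.4, 59.3 and 70.6% in untreated libraries. The ratio of DUSP5 to DUSP6 ranged from 4.05 to 8.93 in GLY, from 3.86 to 4.31 in GLY_PUE, from 0.282 to 0.515 in PUE and from 0.288 to 0.532 in untreated libraries. DUSP5 was thus above DUSP6 in all 6 libraries with GLY and below it in the 6 without, and no scaling between libraries enters these shares. With library totals DUSP5 was called higher and DUSP6 lower, so the direction of the shift follows from those calls. The sum itself was 191 ± 16.5 FPKM in GLY, 196 ± 11.4 in GLY_PUE, 89.3 ± 17.5 in PUE and 95.2 ± 18.7 in untreated cells (SD, n = 3). Phosphatases outside the table were not analysed here.

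**Figure D4:**
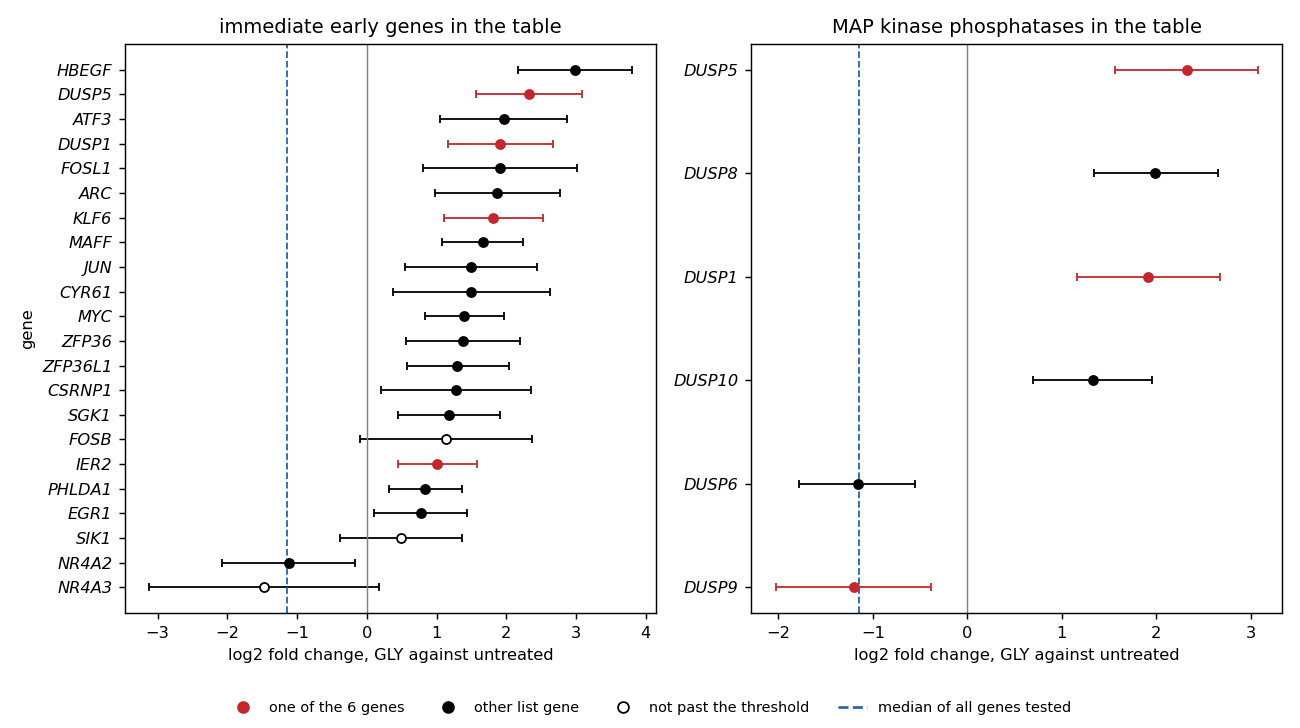
Log2 fold change with 95% interval in GLY against untreated cells for the immediate early genes (left) and MAP kinase phosphatases (right) found in the table, scaled to library totals; red marks DUSP1, DUSP5, DUSP9, KLF6 and IER2, and open circles did not pass the threshold. Most immediate early genes lie to the right of 0 while the dashed median of all genes tested is at -1.15, and DUSP6 and DUSP9 lie at that median; with TMM these 2 lie at -0.09 and 0.00.

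Other immediate early genes rose with the 4. Of 40 others listed, 18 were tested, and with GLY 14 rose, 1 fell and 3 did not pass the threshold, where 19.7% of all genes tested rose and 64.6% fell. Their median log2 fold change was 1.34, against -1.15 for all genes tested. HBEGF, a ligand of the EGF receptor, was at 29.85, 31.61 and 31.21 FPKM in GLY libraries, against 4.81, 4.76 and 2.12 in untreated libraries (2.99 ± 0.38, adjusted p = 8.4e-05). This was the largest increase on the list, above DUSP5. FOSL1, an AP-1 subunit, averaged 764 ± 284 FPKM in GLY and 203 ± 115 in untreated cells (1.91 ± 0.51, adjusted p = 0.00529), and untreated replicate 3 was at 71.69.

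The stress-induced factor ATF3 rose by 1.96 ± 0.42 on the log2 scale with GLY (adjusted p = 0.00164) and MAFF, a small MAF protein, by 1.66 ± 0.27 (adjusted p = 0.000346). MYC was at 156.54, 284.57 and 278.15 FPKM in GLY libraries, against 77.39, 81.57 and 113.2 in untreated libraries (1.40 ± 0.26, adjusted p = 0.000715). Unlike DUSP1, MYC was highest in replicate 3 among the untreated libraries. NR4A2, a nuclear receptor outside the naming rule and singled out after its value was seen, was the gene that fell (-1.12), and it was at -0.07 with TMM. Without the libraries numbered 3, 11 of the 18 rose and 1 fell, with a median of 1.01 beside -1.14 for all genes tested. With TMM 16 rose and 0 fell, where 812 and 346 of all 3429 genes tested did. With GLY_PUE 14 of the 18 rose and 0 fell, where 20.2% and 57.1% of all genes tested did. The median of the 18 was then 1.55, and that of all genes tested was -1.03. With PUE 0 of the 18 passed the threshold, and the same held for GLY_PUE against GLY.

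Genes of ERK feedback and output were called in shares near those of all genes tested. Of 16 listed besides DUSP5, 10 were tested, and with GLY 2 rose and 8 fell, where 19.7% and 64.6% of all genes tested did, with a median of -1.07 beside -1.15 for all genes tested. FOSL1 and PHLDA1, both also on the list of immediate early genes, were the pair that rose; PHLDA1 lies outside the naming rule and is named for that count. CCND1, which encodes cyclin D1, averaged 128 ± 41.7 FPKM in GLY and 391 ± 40.7 in untreated cells (-1.60 ± 0.27, adjusted p = 0.000446). ETV1, an ETS factor, averaged 0.387 ± 0.286 FPKM in GLY and 5.52 ± 4.14 in untreated cells (-3.88 ± 0.68, adjusted p = 0.000514). Without the libraries numbered 3, 1 rose and 5 fell, with a median of -1.22 beside -1.14 for all genes tested. With TMM 2 rose and 1 fell, where 812 and 346 of all 3429 genes tested did. With GLY_PUE 2 rose, 4 fell and 4 did not pass the threshold, where 20.2% of all genes tested rose and 57.1% fell. With PUE 0 of the 10 passed the threshold.

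Of 31 kinases of the MAP kinase cascades 5 were tested, and all 5 fell with GLY, as did 64.6% of all genes tested. MAPK14, which encodes p38 alpha, averaged 8.15 ± 2.65 FPKM in GLY and 17.5 ± 3.42 in untreated cells (-1.16 ± 0.26, adjusted p = 0.002). MAP3K8 was at -1.44 (adjusted p = 0.0061), MAP3K1 at -1.40 (adjusted p = 0.0208) and MAP3K11 at -0.79 (adjusted p = 0.0159). The remaining kinase, MAP2K6, lies outside the naming rule and is named because its level was near 0. It averaged 0.0267 FPKM in GLY and 0.17 ± 0.225 in untreated cells. The median of the 5, -1.40, stood beside -1.15 for all genes tested. With TMM 0 of the 5 were called, where 812 of all 3429 genes tested rose and 346 fell, and MAP3K11 was at 0.43. Without the libraries numbered 3, 2 of the 5 fell, with a median of -1.19 beside -1.14 for all genes tested. With GLY_PUE 3 fell and 2 did not pass the threshold, where 57.1% of all genes tested fell. With PUE 0 of the 5 passed the threshold.

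Among 16 other KLF genes 3 were tested. With GLY 2 rose and 1 fell, where 19.7% of all genes tested rose and 64.6% fell. KLF14 (2.49 ± 0.38, adjusted p = 0.000231) and KLF16 (1.03 ± 0.24, adjusted p = 0.00282) rose with GLY as KLF6 did, and KLF12 fell (-2.35 ± 0.34, adjusted p = 0.000165). KLF14 averaged 2.6 ± 0.967 FPKM in GLY and 0.457 ± 0.176 in untreated cells, far below KLF6 per length. Its change rests on few reads: 112, 72 and 55 in GLY libraries and 8, 18 and 14 in untreated libraries. Of 13 regulators of the serum and cAMP responses 2 were tested. CRTC1, a CREB coactivator, was at -0.76 with GLY (adjusted p = 0.0194) and at 0.46 with TMM, and EP300, a histone acetyltransferase, at -1.02 (adjusted p = 0.0968) was not called. With PUE 0 of these 5 genes passed the threshold.

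The genes most like each member over the 12 libraries were found by Pearson's r of log2 CPM (counts scaled to library size, prior count 2). On the CPM scale the 6 libraries with GLY and the 6 without stand apart for every member, and no test was made of these values. For DUSP9 they do so only through the library totals: GLY replicate 1 and PUE replicate 1 both had 36 reads and 0.75 FPKM. DUSP5 was nearest to GPRC5A and HBEGF (0.998 each) and AEN (0.996), and KLF6 to PAQR5 (0.998), MICAL2 (0.997) and EMP1 (0.996). DUSP1 was nearest to DNAJC1 and RUBCNL (0.995 each) and MAP1LC3B (0.994), and IER2 to LAT (0.994), RAB3IL1 and HMGA1 (0.993 each). HEXIM1 was nearest to CCND1 (0.995), ERBB3 (0.994) and BCL2L15 (0.992), and DUSP9 to TRIM15 (0.963), HOXC5 and UROC1 (0.959 each).

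The members are short genes. In GENCODE release 29 they span 3.11 kb (DUSP1), 13.7 kb (DUSP5), 8.84 kb (DUSP9), 9.29 kb (KLF6), 4.49 kb (IER2) and 3.6 kb (HEXIM1), and the median of the 3540 listed genes that matched is 31.4 kb. HEXIM1 has a single exon, as 3.36% of the matched genes do. DUSP1, IER2 and HEXIM1 each overlap an annotated gene on the other strand, and since strand use in counting is not given in the sources used here, reads of those pairs cannot be told apart.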

How the data were processed

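RNA from SW480 cells was sequenced in 12 libraries, 3 in each of 4 groups. The authors deposited estimated counts per gene, of which 58.2% are whole numbers, and, without naming a unit, expression values that fit FPKM, per the file headers. Further columns hold log2 ratios, p-values and q-values of comparisons made by the authors, per the file headers. As tested on the values, each of the 3699 genes reaches a log2 ratio of 1 in size together with a q-value of 0.001 or less in some comparison of the authors. The submitters' processing notes name TopHat and DESeq 1.32.0 and state no role for either. For the counting tool, build and annotation the name is not given in the sources used here.

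Dividing count by FPKM gave library totals, from 625 genes that reached 100 counts and an FPKM of 5 in each library, set on an absolute scale with 39 genes of a single transcript (untreated replicate 1, 20.2 M reads, 95% interval 20.0 to 20.7). Counts were rounded and fitted with edgeR 4.0.16 in R 4.3.3 (filterByExpr, robust quasi-likelihood F test, 4 groups, all 12 libraries, Benjamini-Hochberg over 3429 genes, adjusted p under 0.05, no replicate block). The code was tested on simulated data. Tried besides were scaling by TMM or RLE, DESeq2 1.42.0, limma 3.58.1 (voom, and log2(FPKM + 1) or log2(FPKM + 0.1)), no filter or 50 counts in 3 libraries, a replicate block, only the libraries compared, and libraries left out. Same-numbered libraries deviated together in PUE and untreated (r = 0.484, 0.389 and 0.702). Across numbers, PUE replicate 1 had r = 0.344 with untreated replicate 2, and PUE replicate 2 had 0.351 with untreated replicate 1. Same-numbered libraries deviated together too in GLY_PUE and untreated (0.194, 0.192 and 0.382) and in GLY_PUE and PUE (0.192, 0.173 and 0.397). Replicates 1 and 2 were not paired by number there: GLY_PUE replicate 1 had r = 0.229 with untreated replicate 2 and 0.245 with PUE replicate 2. Replicate 3 deviated apart from replicates 1 and 2, as in PUE replicate 3 and untreated replicate 1 (r = -0.557). Deviations were taken from each group's own mean, so a replicate 3 that stands apart places replicates 1 and 2 on the other side. The values thus cannot show that replicates 1 and 2 are paired by number. For GLY and untreated r was 0.056, 0.0973 and 0.271. The numbers are those of the labels' titles, which do not say what they share.

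The members, lists and scaling were chosen with earlier results of these data known. Named genes are the 6 members, every other listed MAP kinase phosphatase in the table, up to 4 genes of each list with the smallest p in GLY against untreated, and the 3 genes with the highest r to each member among genes averaging a log2 CPM of 1 or more. Motifs were sought in the 250 bases upstream of RefSeq starts. Protein sequences were not analysed here.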

Additional observations from a re-analysis of the deposited data

How the results depend on the processing

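Over 23 alternatives, DUSP1, DUSP5 and KLF6 stayed higher and called in GLY against untreated (1.36 to 2.98, 2.04 to 3.43 and 1.42 to 2.87 on the log2 scale) and in GLY_PUE against untreated, and IER2 in GLY against untreated (0.71 to 2.20). The number of the 6 called lower was 2 with library totals and 0 with TMM and with RLE scaling, in GLY and GLY_PUE against untreated and in GLY_PUE against PUE; it was 1 in the last without the libraries numbered 3. RLE gave DUSP9 at -0.07 and HEXIM1 at -0.52 with GLY. In GLY against untreated, calls that lost their sign were DUSP9 (TMM 0.00), MAP3K11 (TMM 0.43, RLE 0.35) and CRTC1 (TMM 0.46, RLE 0.38). In GLY_PUE against untreated they were DUSP6 (TMM 0.11, RLE 0.08), MAPK14 (TMM 0.00) and CRTC1 (TMM 0.05, RLE 0.03). These scalings shift all values by their construction. Genes called lower over the table were 346 with TMM and 378 with RLE for GLY (2216 with library totals), 394 and 418 for GLY_PUE (1957), and 402 and 420 for GLY_PUE against PUE (1964). With the replicate block, which pairs same-numbered libraries, DUSP5 was at 2.41 and IER2 at 1.00 in GLY against untreated, and it changed no call of the 6. Leaving out 1 library at a time gave 1.62 to 2.12 for DUSP1, 2.04 to 2.50 for DUSP5, 1.58 to 2.06 for KLF6, 0.71 to 1.16 for IER2, -1.51 to -1.04 for DUSP9 and -1.80 to -1.45 for HEXIM1 with GLY. MAP3K11 and CRTC1 lost their calls with GLY without GLY replicate 2 (-0.64 and -0.60) or 3 (-0.62 and -0.63), and CRTC1 also without untreated replicate 2 (-0.69). MAP3K1, MAP3K11 and CRTC1 lost them in the fit of only the libraries compared (adjusted p = 0.052, 0.0676 and 0.0745) and without the libraries numbered 3 (adjusted p = 0.0904, 0.112 and 0.108). Groups of 3 limit every interval, and DUSP9 rests on 16 to 82 reads per library.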
